A study of Mus musculus with 198 samples.

Results

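Igfbp5 encodes insulin-like growth factor binding protein 5, and it is described here in 9 tissues of mice that received an antibody against PAPP-A and of control mice. It is 1 of 56332 genes in the counts and has 1 identifier, ENSMUSG00000026185.8. It was chosen because it was the gene that differed between treatments in bone marrow, so the marrow treatment contrast is given as a description with no test. RNA was measured by sequencing of stranded total RNA from whole tissues of 22 C57BL/6 mice. The aPAPPA arm was 10 mice, 5 female and 5 male, given anti-PAPP-A antibody over 17 weeks. The control arm was 12 mice, 6 female and 6 male, treated as controls for the same 17 weeks, and neither the ages of the mice nor the kind of control antibody is stated in the sources used here. Every mouse gave bone marrow, gonadal fat, heart, kidney, liver, lung, skin, spleen and subscapular fat, a subcutaneous depot, for 198 libraries in all.

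Insulin-like growth factors circulate and sit in tissue matrix bound to a family of binding proteins, which hold them away from the IGF-1 receptor. PAPP-A, the metalloproteinase that Pappa encodes, cleaves the binding proteins IGFBP-4 and IGFBP-5, which releases IGF close to its receptor, and the stanniocalcins Stc1 and Stc2 inhibit it. IGFBP-5 is secreted, binds matrix and collagen-rich tissue, and is made in bone, muscle, kidney and fibroblast-like cells, among others. On mm10, in GENCODE vM21, Igfbp5 lies on the minus strand of chromosome 1 at 72857932 to 72874884. Its main transcript of 6006 bases has 4 exons, with a 5′ UTR of 745 bases, a coding sequence for 271 amino acids and a 3′ UTR of 4445 bases, so most of the bases that can give counts lie in the last exon, which is 4577 bases long.

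Library totals ran from 4138419 to 19517950 counts, but 9 abundant features, each with a mean share of at least 0.9%, took between 47.4% and 99.5% of them. The counts outside these features, called usable counts here, ran from 33377 to 4694597 with a median of 1099966.5, and they set the depth for Igfbp5. A level is a CPM value taken over usable counts, and a log2 level is log2 of the level plus a pseudocount of 1. Igfbp5 had 0 counts in 2 libraries and under 10 in 19. The defining markers of each tissue were highest in that tissue, except that the adipocyte list was second in subscapular fat after gonadal fat. In 5 libraries the mean log2 level of the tissue's own markers was lower than that tissue's median by more than 2, and these are called libraries in doubt: the lung of control male 68 (Igfbp5 level 1382), the heart of aPAPPA male 56 (254), the heart of control female 22 (206), the gonadal fat of aPAPPA male 58 (25.4) and the skin of aPAPPA female 36, in which 308 genes had at least 10 counts and Igfbp5 had none. A count of 0 in that skin library allows a level of up to 89.9, the floor of 3 counts, so it holds almost no information on Igfbp5.

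In bone marrow Igfbp5 was lower in aPAPPA mice than in control mice. Its level had a lowest value of 11.9, a median of 18.4 and a highest value of 35.1 in aPAPPA marrow, against 25.8, 57.1 and 111 in control marrow. All 10 aPAPPA mice lay below the control median, and 8 of the 10 lay below the lowest control mouse. Among the controls, 11 of 12 lay above the highest aPAPPA mouse, and the exception was female 22, whose 9 counts give a level of 25.8 with an exact binomial 95% interval of 11.8 to 49.0 that covers counting error only. The mean level was 21.7 ± 8.28 in aPAPPA marrow (SD, n = 10) and 60.02 ± 23.2 in control marrow (SD, n = 12), and the fitted difference was a log2 fold change of -1.56 ± 0.20 (SE, edgeR). This contrast is the one that chose the gene, in which it was the sole gene of 12891 tested to be called (0.00776%). The groups rest on 13 to 61 counts per library in aPAPPA marrow and on 9 to 139 in control marrow.

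Bulk marrow cannot tell fewer cells of a type from less RNA per cell. In marrow, Igfbp5 is known from the stromal and bone-forming cells, which are few beside the blood-forming cells. The 12 marrow stroma genes summed to a level of 247 to 416 (median 332) in aPAPPA marrow, against 230 to 443 (median 302) in control marrow, so the arms overlapped throughout. Cxcl12, the chemokine of the stromal niche, averaged 96.5 ± 27.1 in aPAPPA marrow (SD, n = 10) and 113 ± 41.3 in control marrow (SD, n = 12). Lepr, the leptin receptor that marks the same cells, averaged 20.5 ± 8.49 in aPAPPA marrow and 27.0 ± 10.8 in control marrow, while Vcam1, an adhesion receptor of stroma and macrophages, averaged 82.9 ± 15.7 in aPAPPA marrow and 65.3 ± 14.2 in control marrow. The 12 osteolineage genes summed to 155 to 211 (median 184) in aPAPPA marrow, against 139 to 228 (median 167) in control marrow. Within that list Runx2, the transcription factor of osteoblasts, took the largest share and averaged 90.2 ± 17.8 in aPAPPA marrow and 70.7 ± 15.2 in control marrow. The matrix genes went both ways. Ibsp (5.87 ± 3.30 in aPAPPA, 10.1 ± 5.25 in control) and Sparc (7.06 ± 3.08 in aPAPPA, 10.2 ± 4.41 in control) had lower means in aPAPPA marrow. Dmp1 had a higher one (9.23 ± 2.25 in aPAPPA, 6.76 ± 2.17 in control). The means of Spp1, Omd, Col1a1 and Col1a2 differed little beside their SDs. Bglap2, an osteocalcin gene of mature osteoblasts, was at 0 in 8 of 10 aPAPPA marrows and in 12 of 12 control marrows. Alpl, Sp7 and Bglap were low as well, with means of 1.86, 0.274 and 0.209 in aPAPPA marrow and 2.10, 0.723 and 0.169 in control marrow. The osteolineage sum therefore holds little of these genes. The 8 neutrophil genes, the list that marks marrow here, summed to 16180 to 38238 (median 24257) in aPAPPA marrow, against 22630 to 57295 (median 33423) in control marrow. The arms overlapped in that sum, and the part of these cell types in the marrow difference was not tested.

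**Figure D1:**
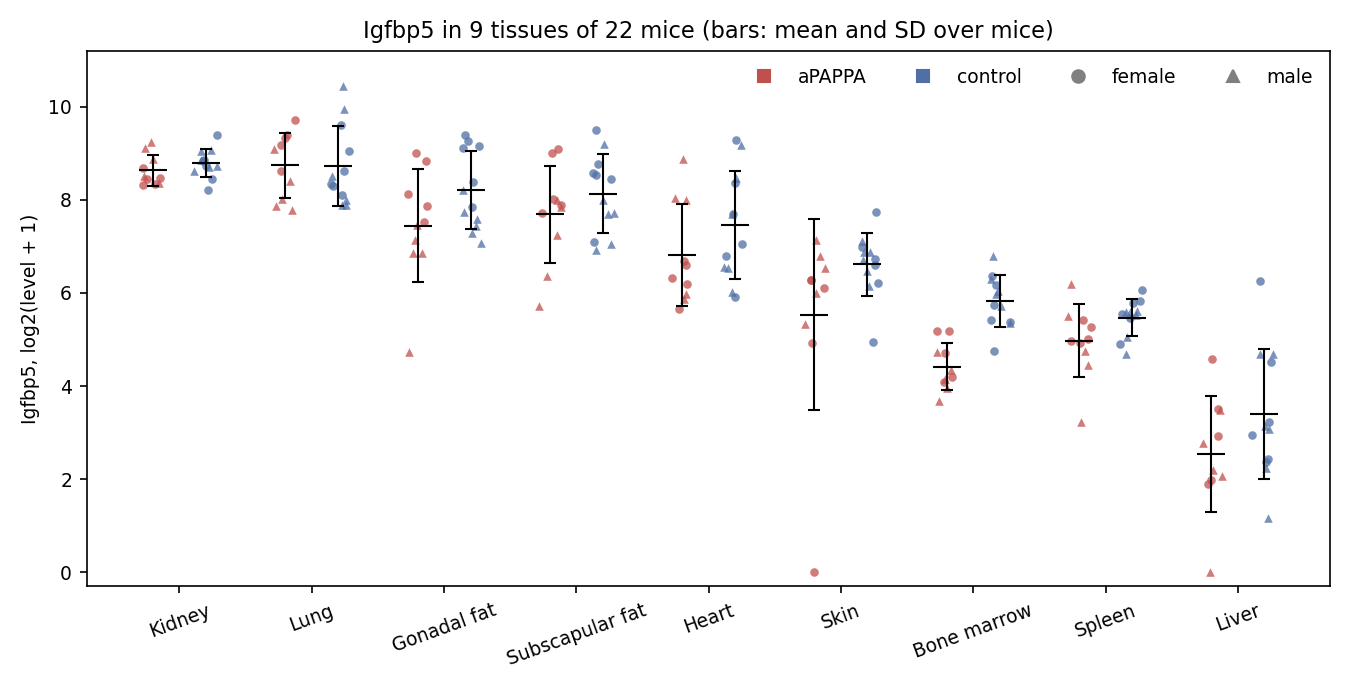
Each point is 1 library's Igfbp5 log2 level, log2(level + 1), by tissue in falling order of the control mean, with aPAPPA in red to the left of control in blue, circles for female and triangles for male mice, and bars for the mean and SD over mice. The arms stand apart most in bone marrow, and the aPAPPA points lie below the control mean more often than above it in most of the other tissues.

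The marrow contrast that chose the gene uses no library of the other 8 tissues, although earlier results in those tissues were known as well. In none of them was the Igfbp5 difference past the threshold, an adjusted p under 0.05 in edgeR's quasi-likelihood test with Benjamini-Hochberg adjustment over all genes tested. No gene was called in these 8 tissues (0%) by edgeR, while 261 to 887 genes per tissue had an unadjusted p under 0.05. Limma-voom called 0 genes in each of them, and DESeq2 called 0 in 7 and 2 in kidney, neither of them Igfbp5. The edgeR log2 fold change of Igfbp5 was below 0 in each of the 7 tissues in which it passed the filter on low counts, but in lung it was above 0 without the library in doubt, at 0.077 ± 0.28 (SE).

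In gonadal fat the Igfbp5 level had a lowest value of 25.4, a median of 179 and a highest value of 516 in aPAPPA mice, against 133, 263 and 668 in control mice, with 7 of 10 aPAPPA mice under the control median. The edgeR log2 fold change was -0.67 ± 0.25 (SE), with an adjusted p of 0.973, and -0.55 ± 0.20 without the library in doubt. In subscapular fat the level had a lowest value of 51.6, a median of 234 and a highest value of 540 in aPAPPA mice, against 120, 301 and 726 in control mice. The 2 arms overlapped over most of their range there, and 8 of 10 aPAPPA mice had less than the median control mouse, with a log2 fold change of -0.33 ± 0.27 (SE, adjusted p = 1.00 by edgeR).

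In heart the Igfbp5 level had a lowest value of 49.1, a median of 87.6 and a highest value of 468 in aPAPPA mice, against 59.0, 169 and 624.6 in control mice. The log2 fold change was -0.77 ± 0.41 (SE), with an adjusted p of 1.00 by edgeR, the widest error among the tissues tested. Hearts fell into separate sets by atrial genes, described further on. In skin the level had a lowest value of 0, a median of 72.3 and a highest value of 140 in aPAPPA mice, against 29.8, 104 and 213 in control mice. Here 8 of 10 aPAPPA mice lay below the control median, with a log2 fold change of -0.52 ± 0.25 (SE, adjusted p = 1.00 by edgeR), or -0.49 ± 0.25 without the library in doubt.

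The differences in kidney and lung, the tissues with the most Igfbp5, were small beside the spread between mice. In kidney the level had a lowest value of 320, a median of 358 and a highest value of 601 in aPAPPA mice, against 293, 439 and 668 in control mice, and the log2 fold change was -0.15 with a 95% interval of -0.40 to 0.10. In lung it had a lowest value of 220, a median of 467 and a highest value of 833 in aPAPPA mice, against 235, 344 and 1382 in control mice. Of the aPAPPA lungs, 4 of 10 were under the control median, and the fitted log2 fold change was -0.18 with a 95% interval of -0.90 to 0.54.

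In spleen the level had a lowest value of 8.36, a median of 30.8 and a highest value of 72.5 in aPAPPA mice, against 24.8, 46.4 and 65.7 in control mice. Of the aPAPPA spleens, 9 of 10 lay below the control median, although the highest level of all was also in an aPAPPA spleen, and the log2 fold change was -0.35 ± 0.22 (SE, adjusted p = 0.969 by edgeR). In liver Igfbp5 was near the limit of detection, with a lowest level of 0, a median of 4.71 and a highest of 23.1 in aPAPPA mice, against 1.26, 7.66 and 75.9 in control mice. Igfbp5 did not pass the filter on low counts there. With no filter its log2 fold change in liver was -1.47 ± 0.44 (SE), with an adjusted p of 0.599 by edgeR.

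**Figure D2:**
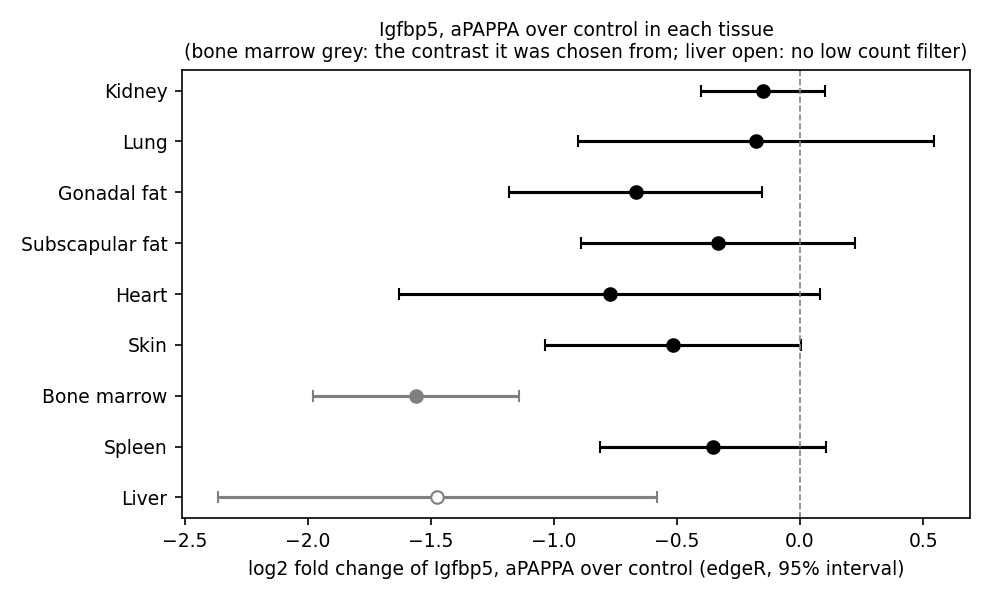
Points are edgeR log2 fold changes of Igfbp5, aPAPPA over control, in each tissue with 95% intervals, for 10 aPAPPA and 12 control mice. Bone marrow (grey) stands at -1.56 and is the contrast the gene was chosen from, liver (open) is fitted with no filter on low counts, and the intervals of heart, kidney, lung, skin, spleen and subscapular fat include 0.

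Averaged over the 8 tissues other than marrow, Igfbp5 was lower in aPAPPA mice. Each tissue was centred on its mean over mice and averaged within each mouse, which gave -0.30 ± 0.22 in aPAPPA mice (SD, n = 10) and 0.25 ± 0.38 in control mice (SD, n = 12) on the log2 level scale. The difference of -0.55 had a two-sided exact permutation p of 0.000300, over all 213444 relabellings of treatment within sex. Leaving out any 1 mouse gave -0.60 to -0.49, and leaving out any 1 tissue gave -0.63 to -0.48. Without the libraries in doubt the difference was -0.42 (exact permutation p = 0.00888). This p is for a single gene that was already known to be low in the marrow of the same mice. Set among all 15231 genes with a mean level of at least 1 in all 8 tissues, Igfbp5 had the smallest p in limma (4.32e-05), but its adjusted p was 0.659 and no gene was called (0%), with 842 genes (5.53%) at an unadjusted p under 0.05. The median difference of all these genes was -0.07, and that of Igfbp5 was the 15th lowest. Without the libraries in doubt Igfbp5 ranked 57th by p in limma (adjusted p = 0.933), with 787 genes (5.17%) at an unadjusted p under 0.05.

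The size of the difference did not vary between the 8 tissues by more than relabelling gave. The tissue differences had an SD of 0.36 on the log2 level scale (exact permutation p = 0.606). This test used all libraries, and the SD between aPAPPA mice was 2.05 in skin and 1.24 in liver, against 0.33 in kidney. Such wide spread also widens the relabelled values, so the test cannot show that the tissues are alike. The lowest was skin at -1.08, which rests on the near-empty library of aPAPPA female 36 and was -0.49 without it. Liver, with 0 to 54 counts per library, had -0.86. The difference was -0.77 in gonadal fat, -0.64 in heart, -0.49 in spleen, -0.44 in subscapular fat and -0.15 in kidney, and it was 0.02 in lung. Single mice moved 3 of these by over 1.5 times, spleen to -0.29 without aPAPPA mouse 58, subscapular fat to -0.27 without aPAPPA mouse 62 and kidney to -0.089 without control mouse 22. Lung changed sign, between -0.089 and 0.18, as mice were left out in turn. On the same scale bone marrow stood at -1.41.

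Other genes of the same pathway did not pass the test in any tissue, and neither did any other gene apart from Igfbp5 in marrow. The list held 18 genes of PAPP-A and IGF biology: the proteases Pappa and Pappa2, their inhibitors Stc1 and Stc2, the ligands Igf1 and Igf2, the receptors and adaptors Igf1r, Igf2r, Insr, Irs1 and Irs2, and the binding proteins Igfals, Igfbp1 to Igfbp4, Igfbp6 and Igfbp7. Between 6 (bone marrow) and 13 (heart and lung) of them passed the filter on low counts in a tissue, and edgeR called 0 of them in each of the 9 tissues. Among all genes tested, edgeR called 0% in the 8 tissues other than marrow and 0.00776% in marrow, Igfbp5 alone. The lack of calls therefore says nothing particular about these 18 genes. Their direction was mixed, and these fits include the libraries in doubt. Below 0 were 12 of 13 in heart (median log2 fold change -0.18, against 0.01 for all genes tested). In skin 7 of 10 lay below 0 (median -0.12, against -0.03 for all genes), and in bone marrow 3 of 6 (0.001, against -0.005). In kidney it was 4 of 12 (0.080, against -0.001) and in spleen 2 of 10 (0.045, against 0.002). In heart the 4 atrial genes, described below, summed to a median level of 31.0 in aPAPPA hearts, against 189 in control hearts, with ranges that overlapped (8.44 to 9735 in aPAPPA, 10.7 to 10051 in control), and their part in that direction was not tested. Igfbp4, the other main substrate of PAPP-A, was tested in all 9 tissues and lay between -0.41 ± 0.16 in gonadal fat (SE, adjusted p = 0.973 by edgeR) and 0.16 ± 0.11 in liver (SE, adjusted p = 1.00 by edgeR), below 0 in 6 of them. Pappa itself, the gene of the antibody's target, passed the filter in 4 tissues, with log2 fold changes of -0.70 ± 0.29 in heart, 0.22 ± 0.19 in kidney, 0.04 ± 0.20 in lung and -0.03 ± 0.30 in skin (SE). Igfbp7 lay between -0.39 ± 0.12 in liver (SE, adjusted p = 1.00 by edgeR) and 0.10 ± 0.11 in spleen (SE, adjusted p = 1.00 by edgeR).

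Igfbp5 was highest in kidney, lung and fat and lowest in liver. In control mice the mean level was 451 ± 96.8 in kidney, 506 ± 362 in lung, 344 ± 199 in gonadal fat, 326 ± 189 in subscapular fat, 237 ± 195 in heart, 106 ± 44.5 in skin, 60.02 ± 23.2 in bone marrow, 44.8 ± 11.6 in spleen and 16.0 ± 20.7 in liver (SD, n = 12 each). The liver mean rests on control female 4, at 75.9, and was 10.5 ± 8.84 without that library (SD, n = 11). The lung mean was 426 ± 246 without the library in doubt, control male 68 at 1382 (SD, n = 11). In order of the mean log2 level the 9 tissues stood at 8.79, 8.72, 8.21, 8.13, 7.46, 6.62, 5.83, 5.47 and 3.40, from kidney to liver. Kidney varied least between mice and liver most, relative to their means.

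Of the 36 tissue pairs in control mice, 24 differed in Igfbp5 in edgeR's quasi-likelihood test, where 62.5% of all gene and pair tests were called and 31.2% to 79.5% in single pairs. No pair among the top 5 tissues (kidney, lung, gonadal fat, subscapular fat and heart) was called, and each of these 5 was called against each of the other 4. The log2 fold change was 4.41 ± 0.37 for kidney over liver and 1.71 ± 0.32 for heart over skin (SE). Skin over marrow had 0.86 ± 0.32 (SE, adjusted p = 0.0135 by edgeR). Marrow over spleen had 0.56 ± 0.33 (SE, adjusted p = 0.141) and liver over spleen -0.68 ± 0.36 (SE, adjusted p = 0.0832), neither past the threshold in this fit, which does not pair tissues by mouse.

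The same mice gave all tissues, so all 36 pairs were also compared within mice, by sign-flip tests on the log2 level. This called 27 of the 36 pairs, with some calls gained and 1 lost against the unpaired fit. The 2 analyses differ in scaling as well as in pairing, with TMM in edgeR and levels over usable counts here. Adding the mouse as a block within edgeR changed 1 call, as given further on. Among the top 5 tissues, kidney lay above heart by 1.33 in 10 of 12 control mice (exact permutation test, adjusted p = 0.0112), kidney above subscapular fat by 0.66 in 9 of 12 (exact permutation test, adjusted p = 0.0312) and lung above heart by 1.26 in 10 of 12 (exact permutation test, adjusted p = 0.0156). Among the neighbours in the order, 2 of 8 pairs were called. Skin lay above marrow in 11 of 12 control mice, by 0.78 (exact permutation test, adjusted p = 0.00439 over 36 pairs). Spleen lay above liver in 11 of 12 as well, by 2.07 (exact permutation test, adjusted p = 0.00306). Marrow lay above spleen in 10 of 12 control mice, by 0.37, which did not pass the adjustment (exact permutation test, adjusted p = 0.0680). Heart lay above skin by 0.84 in 9 of 12 control mice, which was called in the unpaired fit but did not pass here (exact permutation test, adjusted p = 0.0649). The other 4 neighbouring pairs, all among the top 5 tissues, did not pass either. In aPAPPA mice the order of marrow and spleen was turned round, with spleen above marrow by 0.55 (exact permutation test, adjusted p = 0.0961), which restates the low marrow level of that arm.

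Few genes followed the tissue pattern of Igfbp5 closely. Over the 9 tissue means of control mice, 29 of 11848 genes had a Pearson r above 0.9 with Igfbp5 on the log2 level scale, and the median gene had 0.160. The highest were Mturn (r = 0.957), Spag9 (0.948), Aktip (0.948), Dpep1 (0.948) and Wdr35 (0.945), over 9 points that share libraries and depth. Dpep1 encodes a dipeptidase of kidney tubules, Spag9 a scaffold of kinase and motor proteins, and Wdr35 a component of intraflagellar transport in cilia.

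Igfbp5 was higher in females than in males in gonadal fat. Its level had a lowest value of 184, a median of 453 and a highest value of 668 in 11 females, against 25.4, 156 and 297 in 11 males. The sexes overlapped in part of their range, and the mean was 421 ± 174 in females and 157 ± 68.02 in males (SD, n = 11 each). The edgeR log2 fold change, female over male, was 1.44 ± 0.25 (SE, adjusted p = 0.000633), in a tissue where 15.1% of 11993 genes were called for sex. Without the library in doubt it was 1.33 ± 0.20 (SE, adjusted p = 0.000264 by edgeR). The difference stood in both arms, with means of 333 ± 144 in aPAPPA females and 114 ± 55.1 in aPAPPA males (SD, n = 5 each), and of 494 ± 172 in control females and 194 ± 57.5 in control males (SD, n = 6 each). The 7 macrophage genes summed to a level of 900 to 2796 (median 2141) in females, against 1558 to 4528 (median 3103) in males. The 8 adipocyte genes summed to 8580 to 22975 (median 16509) in females, against 3101 to 21447 (median 14453) in males, and the part of either cell type in the sex difference was not tested.

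In subscapular fat the Igfbp5 level averaged 377 ± 171 in females and 207 ± 143 in males (SD, n = 11 each). The log2 fold change was 0.69 ± 0.27 (SE) and did not pass the threshold in edgeR (adjusted p = 0.0823, with 15.5% of genes called), although it did in DESeq2 (adjusted p = 0.0462). In kidney the direction was the other way, with 400 ± 105 in females and 461 ± 86.6 in males (SD, n = 11 each). The log2 fold change there was -0.31 ± 0.12 (SE, adjusted p = 0.0653 by edgeR, with 26.1% of genes called), and DESeq2 again placed it past the threshold (adjusted p = 0.0364). Igfbp5 was not called for sex in bone marrow, heart, lung, skin or spleen, where 0.721%, 0.187%, 0.14%, 0.313% and 4.54% of genes were. The sex by treatment term was not called for Igfbp5 in any tissue in which it was tested, and for no other gene except 1 in spleen (0.00835%). In bone marrow this term was 0.81 ± 0.39 on the log2 scale (SE, female minus male, adjusted p = 1.00 by edgeR), and in lung it was 1.42 ± 0.63 (SE, adjusted p = 0.611 by edgeR).

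**Figure D3:**
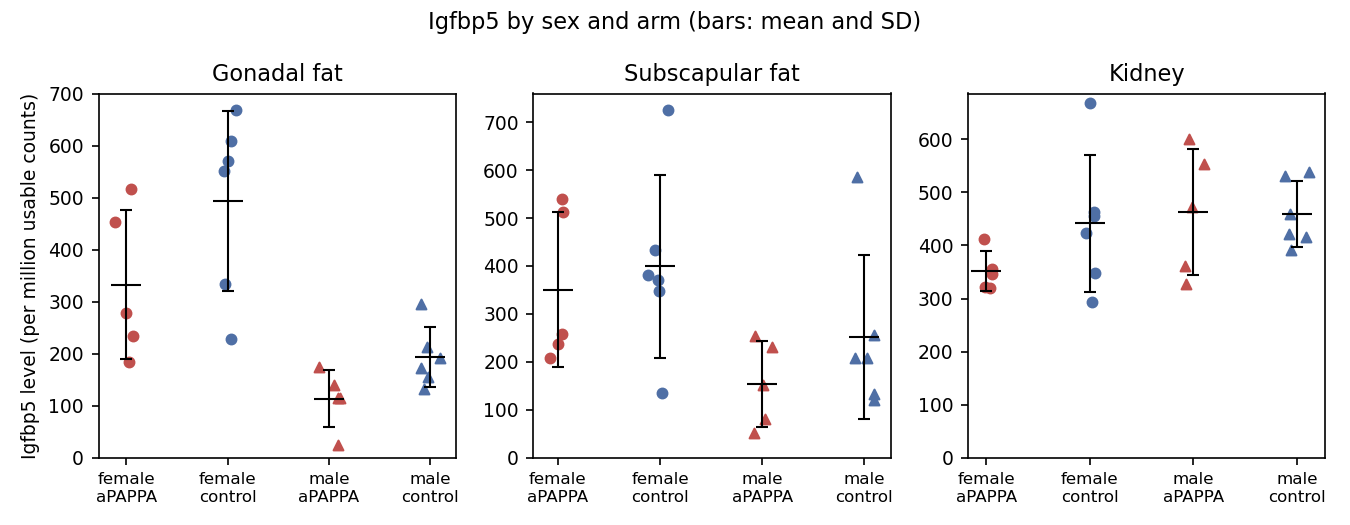
Igfbp5 level (CPM over usable counts) in gonadal fat, subscapular fat and kidney by sex and arm, with aPAPPA in red, control in blue, circles for female and triangles for male mice, and bars for the mean and SD over 5 or 6 mice. In gonadal fat the female means of 333 and 494 stand above the male means of 114 and 194.

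Co-expression was measured over the mice of each tissue as a partial correlation of log2 levels, after removing the means of sex and treatment. Across all genes it was tested with limma, and for 12 chosen partners with 100000 permutations of mice within sex and treatment, adjusted over all partner and tissue pairs. The 12 were the binding proteins Igfbp3, Igfbp4, Igfbp6 and Igfbp7, the ligand Igf1, Pappa, the fibroblast genes Col1a1, Col3a1 and Pdgfra, the stromal chemokine Cxcl12, the smooth muscle actin Acta2 and the endothelial gene Pecam1. The test called 26 of these pairs. They lay in heart (9), subscapular fat (8), lung (3), skin (3), bone marrow (1), gonadal fat (1) and liver (1), with none in kidney or spleen. In these tissues limma called 25.1%, 21.8%, 15.1%, 89.7%, 0%, 13.5% and 0% of all genes, in the same order, by its own test. With TMM levels 15 pairs were called, in heart (5), subscapular fat (5), lung (2), skin (2) and liver (1). The 9 in heart, Pappa among them, are over hearts of 2 separate sets and hold the contrast between these sets, whose own values are given below.

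In kidney the gene that went most closely with Igfbp5 was Pdgfrb, the PDGF receptor of pericytes and mesangial cells (Pearson r = 0.92, Spearman correlation 0.93, limma adjusted p = 0.000179), and r was 0.89 without the 2 mice farthest from the median of Igfbp5. Notch1, a signalling receptor of endothelium and other cells, followed with r = 0.90 (limma adjusted p = 0.000555), and Lrrc32, which holds latent TGF-beta at the cell surface, with r = 0.87 (limma adjusted p = 0.00244). The lowest was Cgref1, at r = -0.80 (limma adjusted p = 0.0206). In all, 54 of 11475 genes were called (0.471%), 44 positive and 10 negative. All 13 collagen genes tested were positive (median r 0.48, against 0.02 for all genes tested), as were all 7 endothelial and all 8 smooth muscle and pericyte genes, with 1, 1 and 0 of them called.

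In heart the mice fell into 2 sets by genes of atrial muscle, a split made after the data were seen. Myl7, the atrial myosin light chain, stood at a level of at least 50 in 4 aPAPPA and 6 control hearts and at 2.20 or less in the other 6 and 6. Where atrial genes were present, Igfbp5 lay between 102 and 468 in aPAPPA hearts (mean 271 ± 150, SD, n = 4) and between 206 and 624.6 in control hearts (mean 382 ± 180, SD, n = 6). This set holds both hearts in doubt, aPAPPA male 56 (254) and control female 22 (206). Where they were near 0, it lay between 49.1 and 96.2 in aPAPPA hearts (mean 69.2 ± 16.9, SD, n = 6) and between 59.0 and 131 in control hearts (mean 91.4 ± 27.4, SD, n = 6). The 2 sets hardly overlapped in Igfbp5, while the arms overlapped within each set. The part of atrial tissue in the treatment difference was not tested.

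Because of these sets, no coefficient over all 22 hearts is given, and the limma count for heart (2826 of 11251 genes, 25.1%) holds the contrast between the sets. Within them, Igfbp4 had r = 0.89 in the 10 hearts with atrial genes and 0.39 in the 12 without (permutation adjusted p = 0.0541 and 0.645 over 24 tests). Igf1 had r = 0.12 in the first set and 0.56 in the second (permutation adjusted p = 0.884 and 0.0541). The first set allows 216 relabellings within sex and treatment, so its smallest possible p is 0.00463, which Igfbp4 reached, and no partner could pass the adjustment there on its own. That no partner was called in that set therefore says nothing about their relation, and all 12 had a positive r there (median 0.58). Both hearts in doubt are among these 10, and no r without them is given for this set. The second set allows 1728 relabellings, and there 0 of 12 were called and 9 had a positive r (median 0.31). Aebp1, which encodes a collagen-binding matrix protein, Timp2, an inhibitor of matrix metalloproteinases, and Igfbp4 had been the highest over all hearts and Cdc34, a ubiquitin-conjugating enzyme, the lowest, so their values within the sets are a description. Aebp1 had r = 0.88 with atrial genes and 0.85 without, Timp2 0.84 and 0.43, and Cdc34 -0.63 and -0.29.

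In subscapular fat Igfbp5 went with collagen and fibroblast genes and with genes of several other lists. Ahnak2 (r = 0.92), Mfap5, a microfibril protein (0.90), and Sh3d19 (0.89) were the highest of all genes, and Ppp5c, a protein phosphatase, the lowest (-0.78). Limma called 2400 of 11018 genes (21.8%), among them 14 of 14 collagen, 11 of 12 fibroblast, 7 of 7 macrophage, 9 of 12 PAPP-A and IGF axis and 5 of 8 adipocyte genes, all positive. Their median r was 0.74 for collagen, 0.79 for fibroblast, 0.72 for macrophage, 0.74 for axis and 0.61 for adipocyte genes, against 0.29 for all genes tested. The 6 skeletal muscle genes were all negative (median r -0.13) with 0 called. When levels were scaled by TMM the general median was -0.04 and the call count 479, so the general positive shift depends on the scaling. The median r was then 0.61 for collagen, 0.68 for fibroblast, 0.56 for macrophage, 0.59 for axis and 0.43 for adipocyte genes, with 7, 8, 1, 4 and 2 called, and 3 of the 6 muscle genes were positive. Of the partners, with levels over usable counts, Pdgfra had r = 0.85 (Spearman correlation 0.80, permutation adjusted p = 0.000270), Igfbp7 0.79, Igf1 0.77, Col3a1 0.75 and Igfbp4 0.73. With TMM levels 5 of the 12 partners were called in this tissue, against 8.

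Skeletal muscle genes also varied between the subscapular fat libraries, with a summed level of at least 1000 in 14 of 22. Igfbp5 lay between 51.6 and 540 in the 8 aPAPPA and between 133 and 587 in the 6 control libraries with high muscle genes. It was 81.7 and 231 in the 2 aPAPPA and 120 to 726 in the 6 control libraries with low muscle genes, so the sets overlapped. Within the 14 with high muscle genes, 8 of the 12 partners were called, among them Igf1 with r = 0.87 (permutation adjusted p = 0.0110 over 24 tests), Pdgfra with 0.87 (permutation adjusted p = 0.0142) and Igfbp7 with 0.83 (permutation adjusted p = 0.0145). No values with TMM levels are given for these muscle sets. The 8 with low muscle genes allow 72 relabellings and no p below 0.0139, so their lack of calls is no sign of a weaker relation. All 12 partners had a positive r among these 8 libraries (median 0.71), and Igf1, Pdgfra and Igfbp7 had 0.82, 0.81 and 0.81. The genes that led over all 22 libraries are given within the sets as a description, since they were picked from the same libraries. Ahnak2 had r = 0.95 with high and 0.78 with low muscle genes, Mfap5 0.92 and 0.86, and Sh3d19 0.91 and 0.87.

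**Figure D4:**
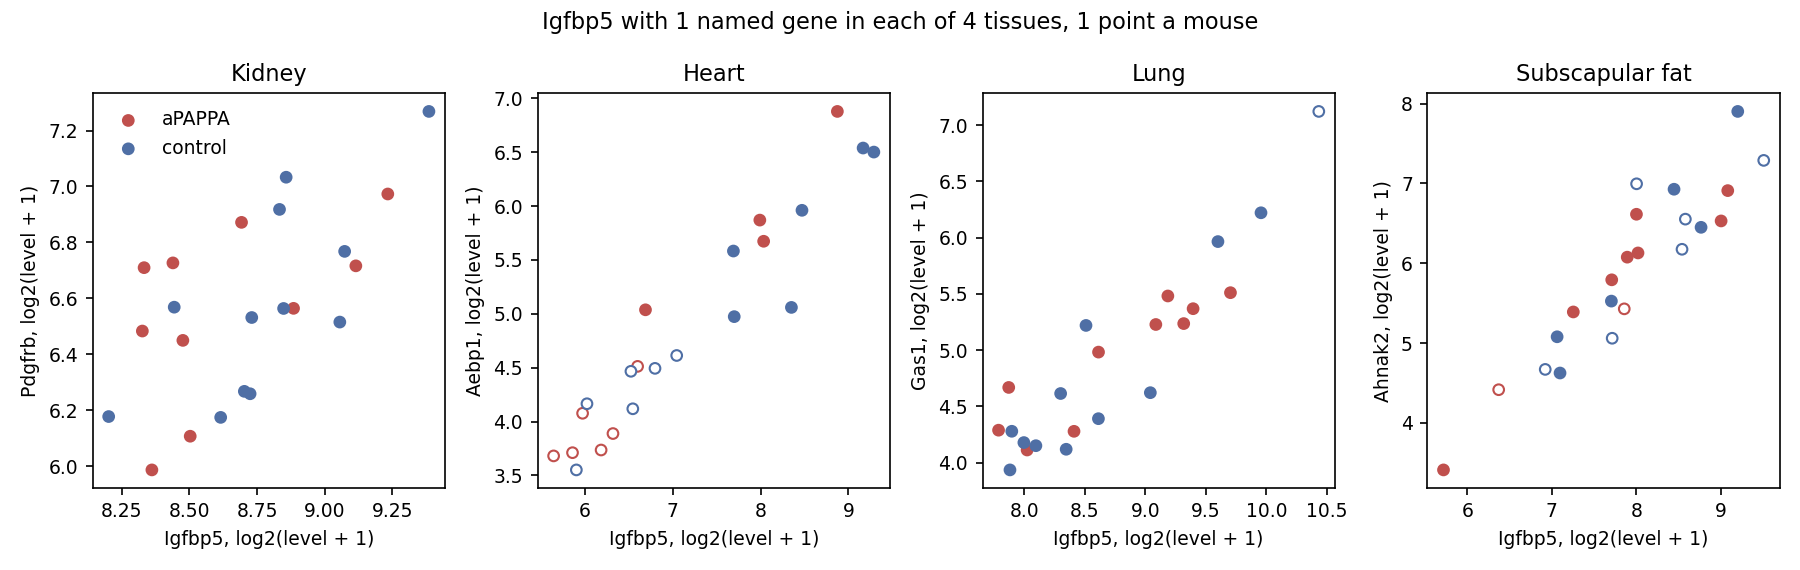
Each point is a mouse, with the Igfbp5 log2 level on the x axis and the log2 level of Pdgfrb in kidney, Aebp1 in heart, Gas1 in lung and Ahnak2 in subscapular fat on the y axis, aPAPPA in red and control in blue, with no means of sex or treatment removed. In heart filled points have atrial genes, in subscapular fat filled points have high muscle genes, and in lung the open point is the library in doubt, which lies at the top end.

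In lung Igfbp5 went up with Gas1, a Hedgehog co-receptor of mesenchymal cells, and Fras1, a basement membrane protein, and down with endothelial genes. The r was 0.94 for Gas1 and 0.93 for Fras1, and without the library in doubt, in which the lung epithelium markers were nearly absent, both were 0.90 (limma adjusted p = 0.000202). Smpd3, a sphingomyelinase, had 0.92, or 0.87 without that library. The call count depended on the same library, with 1948 of 12885 genes (15.1%) with it and 35 of 12706 (0.275%) without. All 8 endothelial genes had a negative r, with a median of -0.75 over 22 lungs and -0.58 over 21, against -0.11 and -0.10 for all genes tested, and limma called 7 of the 8 with that library and 0 without it. Other lists moved too. With TMM levels over all 22 lungs, the 6 lung epithelium genes were all negative and called (median r -0.61). The 7 macrophage and 13 collagen genes tested were all positive (median r 0.66 and 0.51), with 6 called in each list. These values include the library in doubt, which had the highest Igfbp5 level and was put in doubt by its low lung epithelium genes. They therefore hold that library's contrast to the other lungs, and no values without it are given for these lists. Pecam1 had r = -0.76 (permutation adjusted p = 0.00373), which was -0.62 without the library in doubt (permutation adjusted p = 0.0150).

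In bone marrow no gene passed the threshold for co-expression with Igfbp5 across all genes in limma (0 of 12890, 0%, with 1104 at an unadjusted p under 0.05). The highest were Intu, a planar polarity and cilium gene (r = 0.76), Telo2, which stabilizes kinases of the DNA damage response (0.73), and Lsm3, a splicing factor (0.72), and the lowest was Mospd2 (-0.70), all with a limma adjusted p of 0.467. Among the partners Cxcl12 was called, with r = 0.57 and a Spearman correlation of 0.52 (permutation adjusted p = 0.0388). Its r was 0.45 without the 2 mice farthest from the median of Igfbp5, and with TMM levels it did not pass (r = 0.55, permutation adjusted p = 0.0603). Of the 8 marrow stroma genes tested, 7 had a positive r (median 0.45, against 0.08 for all genes tested), and 0 were called in limma.

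In gonadal fat Fam160a1 (r = 0.91), the growth factor Fgf1 (0.91) and Arhgap29 (0.90) led, and Pgk1 of glycolysis was lowest (-0.86). Limma called 1619 of 11992 genes there (13.5%), 7 of 8 adipocyte genes among them, but 0 of 12220 (0%) without the library in doubt, where adipocyte markers were low and Igfbp5 was at 25.4. The single partner called there, Igfbp6, had r = 0.71 with that library and 0.34 without (permutation adjusted p = 0.0482 and 0.274). In skin 8873 of 9893 genes (89.7%) were called with the near-empty library and 0 of 10377 without it, and the leading gene Timp2 had r = 0.96 with it and 0.78 without. Among the skin partners without that library, Cxcl12 had r = 0.71 (permutation adjusted p = 0.0119), Pdgfra 0.67 (permutation adjusted p = 0.0104) and Pecam1 0.60 (permutation adjusted p = 0.0351). With it, Pdgfra, Pecam1 and Col3a1 were called and Cxcl12 had r = 0.045. In liver Igfbp6 was called with r = 0.64 (permutation adjusted p = 0.0130), at a median Igfbp6 level of 0.279. In spleen 0 of 11977 and in liver 0 of 8897 genes were called (0%), with 305 in spleen and 927 in liver at an unadjusted p under 0.05. The highest in spleen were Cyc1, Cd34 and Bbs2 (r = 0.70, 0.70 and 0.69), and in liver Pnn, Hyal1 and Zdhhc7 (0.76, 0.75 and 0.75).

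**Figure D5:**
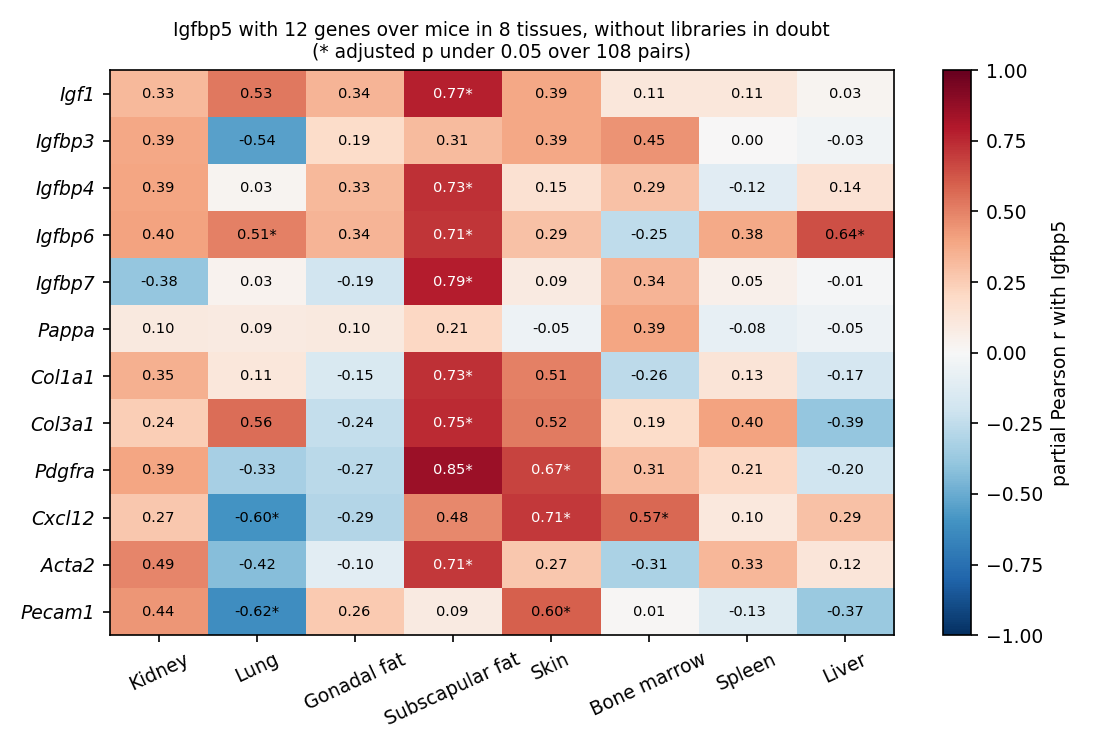
Partial Pearson r of Igfbp5 with 12 genes (rows) over mice in 8 tissues (columns), without the libraries in doubt, where red is positive, blue is negative and an asterisk marks a permutation adjusted p under 0.05 over all partner and tissue pairs. Subscapular fat has 8 marked genes, all positive, lung has Pecam1 and Cxcl12 marked as negative and Igfbp6 marked as positive, and heart is left out because its mice fall into 2 sets. Levels are over usable counts, and with TMM levels 5 of the 12 genes were called in subscapular fat.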

How the data were processed

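Per the labels' protocols, whole-tissue RNA was isolated with a Qiagen RNeasy kit and DNase, 100 ng went into each stranded total RNA library, and 12 PCR cycles were run. Per the submitters' processing notes, FastQC 0.11.5, Salmon and the build mm10 were used. The authors deposited whole-number counts per gene for 198 libraries. The rounding of Salmon's estimates, the annotation and any filter are not given in these sources, and an antisense or overlapping gene could share counts.

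Igfbp5, the gene lists and the tests were chosen with earlier results of these data known. Groups came from the labels, with the mouse as the replicate, and p-values measure the spread between these mice. The exception is the main edgeR fit between tissues, which treats the libraries of a control mouse as independent. It also shares an estimate of spread over all tissues, so its p-values do not measure the spread of a single pair. Counts of all genes were tested in each tissue with edgeR 4.0.16 (quasi-likelihood test, TMM, low count filter, sex as covariate, two-sided) in R 4.3.3, at a Benjamini-Hochberg adjusted p under 0.05, and between tissues over all control libraries. Alternatives used DESeq2 1.42.0, limma-voom, RLE scaling and others. Limma 3.58.1 tested co-expression. Exact and permutation tests used Python 3.11.15. Of the procedures, the edgeR fits of treatment, sex and tissue and the limma fits of co-expression and of the mean over tissues were tested on simulated data. Genes named for co-expression were the 3 highest and the 1 lowest by r per tissue with a median level of at least 5, plus 12 fixed partners; for tissue likeness, the 5 highest with a tissue mean of at least 20. Tissues of a mouse are paired by its number in the labels, and arms are not, since no mouse was in both. Igfbp5 in 1 tissue followed Igfbp5 in another of the same mouse with a median r of -0.00118 over 36 tissue pairs. Igfbp5 sequences were not printed.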

Additional observations from a re-analysis of the deposited data

Results flagged for a closer look

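The gaps of the highest and of the lowest library to the next were looked at in the 9 aPAPPA groups of 10 libraries. There chance flags about 1 in 20 groups if levels follow a normal distribution, which was not checked. The control groups of 12 were not looked at in this way, although control liver female 4 stood at 75.9 with the next control liver at 24.9. In heart, aPAPPA male 58 had an Igfbp5 level of 468, set apart from the other aPAPPA hearts by a gap of 0.493 of the whole range, and its heart was 1 of the 4 aPAPPA hearts with atrial genes. In liver, aPAPPA female 36 had an Igfbp5 level of 23.1, with a gap of 0.548 of the range, which rests on 7 counts.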

How the results depend on the processing

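The marrow difference of Igfbp5 lay between -1.57 and -1.55 on the log2 scale under all edgeR, DESeq2 and limma-voom alternatives, and DESeq2 gave it no adjusted p. In lung the treatment difference turned to 0.077 without the library in doubt and to 0.010 in limma-voom. The 8-tissue difference kept its direction but did not pass limma's adjustment over all genes, at -0.55 and, without the libraries in doubt, -0.42. DESeq2 placed the sex difference past the threshold in kidney (-0.32) and subscapular fat (0.69). With the mouse number as replicate block, 25 of 36 tissue pairs were called against 24, liver against spleen being the addition (adjusted p = 0.04999), and no other call changed.

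Near-equal tissue pairs changed sign: gonadal fat against heart with RLE (-0.023), gonadal fat against subscapular fat and kidney against lung with no TMM (0.053 and -0.18), and, within mice, gonadal fat minus subscapular fat with TMM levels (-0.21). In aPAPPA mice, kidney minus lung was -0.10, gonadal fat minus subscapular fat -0.25 and marrow minus spleen -0.55. TMM levels called 4 of 8 neighbouring pairs against 2, and 15 partner and tissue pairs against 26.

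Co-expression counts moved most: with TMM levels to 911 genes in heart and 479 in subscapular fat, and without the libraries in doubt to 0 in gonadal fat, 35 in lung and 0 in skin. The cause of these changes was not tested. Libraries in doubt, the limma fit over all genes, and the heart and muscle splits were chosen after seeing the data. Beside these, 321 recomputed main values and 295 values for single tissue pairs or partner genes were counted as unchanged. That label does not mean that every sign held. For a mouse left out of a tissue's difference, it needs only a move smaller than the SD between mice. Leaving out a single mouse can hardly move a difference that far, so these labels say little about stability. The skin difference, at -1.08 with all mice and -0.49 without aPAPPA mouse 36, was counted as unchanged. As mice were left out in turn, the lung treatment difference in log2 level kept its sign in 11 of 22 cases. Of the values for single tissue pairs or partner genes, 7 gained the call and 15 lost it, 11 of the 15 in partner genes with TMM levels. Few Igfbp5 counts limit liver, and the near-empty library limits skin.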

Other observations

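No relation between the Igfbp5 levels of a mouse in different tissues passed the adjustment. Over 36 pairs of tissues, with sex and treatment means removed, Pearson r lay between -0.378 and 0.647, 18 pairs were positive, 1 had an unadjusted permutation p under 0.05 and 0 passed the adjustment. By Spearman correlation 3 pairs had an unadjusted permutation p under 0.05 and 0 passed the adjustment, and these were gonadal against subscapular fat (0.67, adjusted p = 0.0925), kidney against subscapular fat (0.57, adjusted p = 0.198) and liver against spleen (-0.46, adjusted p = 0.467). The 22 mice share no library between tissues, and depth differs between tissues of a mouse.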
